A study of Mus musculus with 6 samples.

Results

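The genes examined were 10 that were chosen by name: Kdm1a, which encodes the lysine demethylase LSD1, its paralog Kdm1b, the CoREST complex genes Rcor1, Rcor3, Hdac1, Hdac2 and Phf21a, and the demethylase genes Kdm3a, Kdm4a and Kdm6b. They were taken from 23284 genes, and all 10 were among the 12453 genes with enough reads to be tested. Kdm1a was in the set because it was lower in these same Y67F-FXR livers, so its values are a description and carry no test, and the question was whether the other 9 genes were lower too. Liver RNA was compared between 2 groups of 3 FXR-floxed male mice, with 1 library per liver. At 8 weeks of age, every mouse received a virus (AAV8) that expressed Cre recombinase from the TBG promoter, which is active in hepatocytes, so that mouse FXR was to be removed from hepatocytes and not from other liver cells. The same injection carried AAV8-TBG with FXR, either wild type (FXR-WT) or with tyrosine 67 changed to phenylalanine (Y67F-FXR). After 4 weeks, all mice were fed chow with 0.5% cholic acid for 6 h, so both groups were bile acid (BA)-fed, and no group without FXR or without BA was analysed here.

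FXR is the nuclear receptor for BAs, and it lowers BA synthesis in the liver partly through co-repressors that act on chromatin. LSD1 is a flavin-dependent enzyme that removes methyl groups from mono- and dimethylated H3K4, a lysine in the tail of histone H3 whose methylation is a mark of active promoters and enhancers. It works in a complex with CoREST, the scaffold encoded by Rcor1 and its relatives, and with the deacetylases HDAC1 and HDAC2, and the Phf21a product binds the H3K4 tail once it is unmethylated. LSD2, the product of Kdm1b, is the only other flavin-dependent histone demethylase, whereas Kdm3a, Kdm4a and Kdm6b encode iron-dependent Jumonji enzymes that act mainly on H3K9, on H3K9 and H3K36, and on H3K27.

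FXR binds paired copies of the nuclear receptor core motif, most often as an inverted repeat with a single-base spacer. The promoters of the 2 flavin-dependent demethylase genes are shown, Kdm1a because the result turns on it and Kdm1b as its paralog. Each is the 250 bases before the annotated start in RefSeq (mouse build GRCm38.p6), read 5′ to 3′ on the strand of the gene. Kdm1a is at chr4:136602724-136602973 on the minus strand and Kdm1b at chr13:47043249-47043498 on the plus strand, and capitals mark the core motif AGGTCA.
Kdm1a: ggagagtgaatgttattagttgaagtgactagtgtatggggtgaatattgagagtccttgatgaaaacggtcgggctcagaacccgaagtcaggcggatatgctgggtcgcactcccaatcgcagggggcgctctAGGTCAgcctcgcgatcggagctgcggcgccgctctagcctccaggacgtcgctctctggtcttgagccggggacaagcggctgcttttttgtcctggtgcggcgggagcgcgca
Kdm1b: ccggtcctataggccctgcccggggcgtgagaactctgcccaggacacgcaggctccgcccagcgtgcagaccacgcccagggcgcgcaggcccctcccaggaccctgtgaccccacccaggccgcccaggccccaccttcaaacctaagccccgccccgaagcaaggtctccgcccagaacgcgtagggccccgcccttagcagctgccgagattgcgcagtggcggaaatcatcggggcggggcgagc

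The Kdm1a window held 1 core motif, whose first base lay 115 bases before the start, and the Kdm1b window held none on either strand. Kdm1a was the only gene among the 8 members with a RefSeq promoter (Hdac1 and Kdm6b were not matched) to hold it. The core motif was common, however, with a match on either strand in 14% of the 32851 promoters of that length. The full inverted repeat, AGGTCA and TGACCT with 1 base of any kind (N) between them, was in no member window and in 0.00609% of all promoters. The Kdm1a window was 59.2% G or C with 21 CG dinucleotides, and the Kdm1b window was 71.6% G or C with 22. A match describes letters in a window and not a bound site.

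The depth was similar across livers, with 19551113 to 22053320 reads on genes, and counts were scaled to library size as CPM, with TMM factors. Expression was tested with edgeR's quasi-likelihood test and Benjamini-Hochberg adjustment over all 12453 genes, and calls needed a fitted change of more than 1.5-fold together with an adjusted p below 0.05. The mouse FXR gene Nr1h4 was at 152 to 209 CPM in FXR-WT and 169 to 186 CPM in Y67F-FXR livers, and since Cre was given to both groups it does not check the labels. All 7 hepatocyte markers were tested and none was called or had an unadjusted p under 0.05, with summed levels of 106505 to 116971 CPM in FXR-WT and 106399 to 126383 CPM in Y67F-FXR livers. Of 32 tested markers of other liver cells, none was called. Over the alternatives, DESeq2 called 2 of them, the likelihood ratio test 3, a length offset 3, a fit without a filter 2, and DESeq2 size factors or library totals 1 each. An unadjusted p under 0.05 was found for 6 of the 32, all with lower fitted values in Y67F-FXR, beside 13.4% of all genes tested and 6.67% with lower values. They were S100a8, S100a9, Lrat, Col1a1, Acta2 and Lyve1, named after their values were seen. Acta2 was at 9.88 CPM in the first FXR-WT liver and at 1.60 and 1.56 CPM in the others of that group, and its groups overlapped. Kupffer cell and leukocyte markers split into 7 with lower and 5 with higher fitted values, from -2.73 for S100a8 (adjusted p = 0.0529, edgeR's quasi-likelihood test) to 1.63 for Marco on the log2 scale, and endothelial markers into 3 and 3, from -0.89 for Lyve1 to 0.12. S100a8 had 75 reads over all 6 livers. Marco was at 62.2 CPM in the second Y67F-FXR liver and at 6.85 and 16.5 CPM in the others of that group. The summed levels of Kupffer cell and leukocyte (159.6 to 236.4 and 128.4 to 334.9 CPM), endothelial (161.4 to 190.6 and 164.8 to 174.3 CPM), cholangiocyte (46.0 to 71.1 and 54.1 to 60.6 CPM) and erythrocyte markers (80.1 to 89.3 and 86.7 to 113.9 CPM) overlapped between FXR-WT and Y67F-FXR. Of the 8 stellate cell markers, none was called, 3 had an unadjusted p under 0.05 and 7 had lower fitted values in Y67F-FXR livers. Their summed level was 85.0 to 113.8 CPM in FXR-WT and 69.7 to 78.2 CPM in Y67F-FXR livers, with no overlap, while by group mean Lrat was at 16.6 and 7.47 CPM and Reln, the marker with the most reads, at 33.7 and 34.6 CPM. In whole liver, fewer cells of a type and less RNA per cell cannot be told apart, and the part of these cells in the results for the member genes was not tested.

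Kdm1a mRNA was far lower in every Y67F-FXR liver. The gene lies on chromosome 4 of mm9 from 136106448 to 136158638 on the minus strand, with 19 exons and 3015 exon bases. Its level was 45.0, 44.4 and 41.9 CPM in the 3 FXR-WT livers and 12.2, 13.5 and 13.1 CPM in the 3 Y67F-FXR livers. These values rest on 916 to 969 reads per FXR-WT liver and 248 to 275 reads per Y67F-FXR liver. The groups lay far apart and each was tight, with means of 43.8 ± 1.68 CPM (SD, n = 3) and 12.9 ± 0.709 CPM (SD, n = 3). The fitted log2 fold change was -1.76 (standard error 0.115), a level 3.38-fold lower in Y67F-FXR. By fitted fall, Kdm1a ranked 40th of the 12453 genes tested and 32nd of the 11514 genes that averaged 1 CPM or more.

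Kdm1a was the 1 member called out of 10, and it was called lower, where 0.426% of all genes tested were called lower, 0.546% higher and 0.972% in either direction. Since Kdm1a was chosen on this contrast, nothing is read from its own call. Of the other 9 members, 7 had lower and 2 higher fitted values in Y67F-FXR. None of the 9 was called by edgeR's quasi-likelihood test or by DESeq2. Hdac2 and Kdm4a, 2 of the 9, had an unadjusted p under 0.05, both with Y67F-FXR lower. Of all genes, 13.4% had such a p (6.67% lower and 6.75% higher). A gene that was not called may still differ, so the 95% intervals of the differences were examined, which are not adjusted for the number of genes. Over the 9 genes, the lowest bound was -0.94 on the log2 scale, for Rcor3, and the highest was 2.27, for Rcor1.

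**Figure D1:**
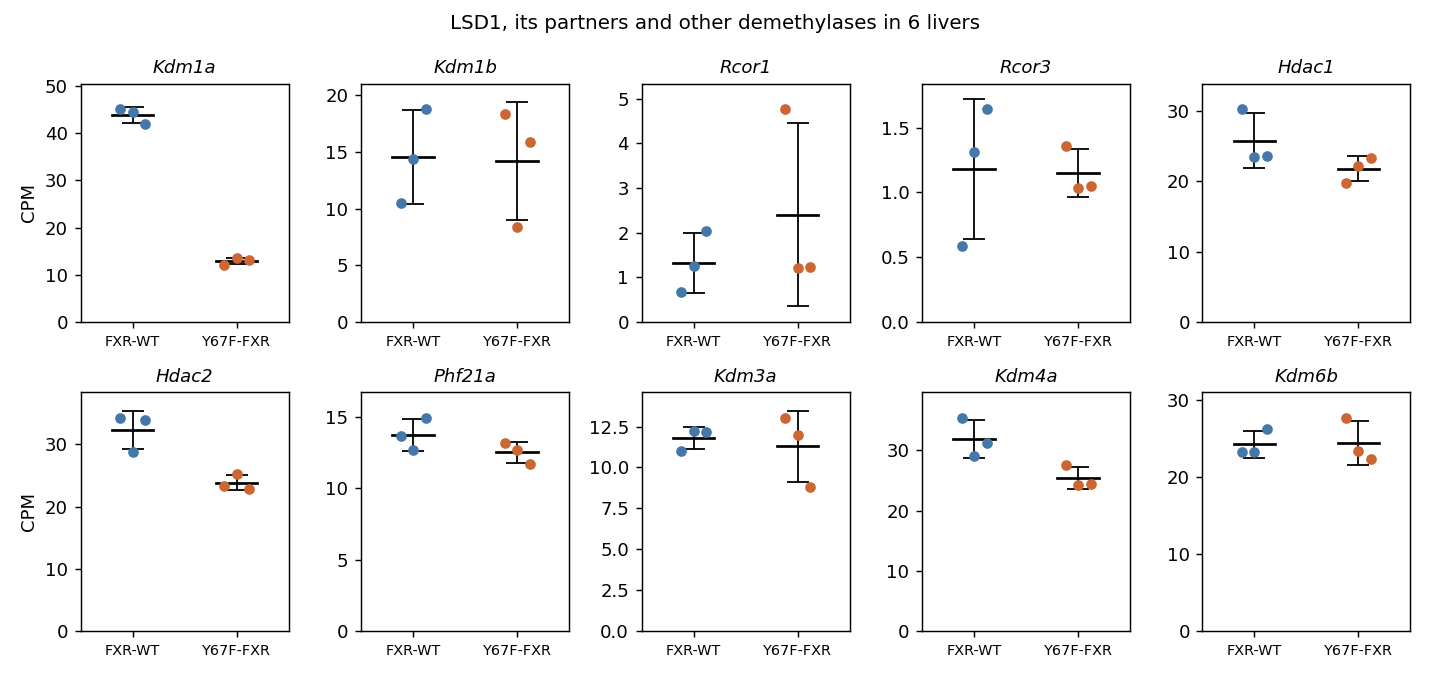
Level of each of the 10 member genes in CPM (y axes start at 0 and differ between panels) in the 3 FXR-WT (blue) and 3 Y67F-FXR (orange) livers. Points are livers, the thick line is the mean and the bars are the SD. Kdm1a separates from 41.9 CPM or more to 13.5 CPM or less, whereas 6 of the other 9 genes overlap between groups.

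The paralog Kdm1b had nearly the same mean level in both groups but a wide spread. Kdm1b lies on chromosome 13 of mm9, 47138908 to 47179982. It was at 10.5, 14.4 and 18.8 CPM in FXR-WT and at 18.3, 8.40 and 15.8 CPM in Y67F-FXR livers. The groups overlapped, and the lowest liver of all was the second Y67F-FXR liver. The log2 fold change was -0.03 (95% interval -0.75 to 0.68, adjusted p = 0.985, edgeR's quasi-likelihood test). Kdm1b was at 3.39 CPM per kb of exon in FXR-WT, so LSD1 and LSD2 mRNA can be set side by side per length. Kdm1a made up 85.9%, 81.5% and 76.0% of the summed Kdm1a and Kdm1b level per kb in FXR-WT livers and 48.5%, 69.6% and 54.0% in Y67F-FXR livers. The ratio of Kdm1a to Kdm1b per kb was between 3.17 and 6.11 in FXR-WT and between 0.942 and 2.29 in Y67F-FXR livers, so in 1 Y67F-FXR liver Kdm1b was the higher of the pair. This shift contains the change by which Kdm1a was chosen. Of the 50-base stretches of Kdm1b transcripts, 8.16% also occurred in another gene, chiefly Dek, and such reads could have been lost or misplaced in the authors' counting.

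The CoREST scaffold genes were low and variable. Rcor1, on chromosome 12 of mm9 from 112278009 to 112351597, was at 0.684, 1.26 and 2.03 CPM in FXR-WT and at 4.76, 1.2 and 1.24 CPM in Y67F-FXR livers. The first Y67F-FXR liver stood above all others with 98 reads, while the remaining 5 livers had 14 to 47 reads, and the groups overlapped. The log2 fold change of 0.85 (95% interval -0.57 to 2.27, adjusted p = 0.641, edgeR's quasi-likelihood test) rested on that liver and was -0.13 without it. Rcor3, on chromosome 1 of mm9 from 193924343 to 193961669, was at 0.587, 1.31 and 1.64 CPM in FXR-WT and at 1.36, 1.04 and 1.05 CPM in Y67F-FXR livers. Its Y67F-FXR values lay inside the FXR-WT range, and the log2 fold change was -0.04 (95% interval -0.94 to 0.86, adjusted p = 0.984). Rcor3 had 12 to 38 reads per liver. For Rcor3, 7.16% of the 50-base stretches were shared with other genes. The third family member, Rcor2, had 18 reads over all 6 livers and was not tested.

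The deacetylase genes Hdac1 and Hdac2, which encode the shared catalytic subunits of several co-repressor complexes, both had lower fitted values in the Y67F-FXR livers and were not called. Hdac2, on chromosome 10 of mm9 from 36694350 to 36721694, was at 34.3, 28.8 and 34.0 CPM in FXR-WT and at 23.3, 25.2 and 22.9 CPM in Y67F-FXR livers. The groups did not overlap, and the means were 32.4 ± 3.05 and 23.8 ± 1.22 CPM (SD, n = 3 each). Its log2 fold change was -0.44 (standard error 0.123, 95% interval -0.73 to -0.16, adjusted p = 0.162, edgeR's quasi-likelihood test), and DESeq2 gave an adjusted p of 0.0746. Hdac1, on chromosome 4 of mm9 from 129193348 to 129219890, was at 30.2, 23.4 and 23.6 CPM in FXR-WT and at 19.8, 22.2 and 23.2 CPM in Y67F-FXR livers. The groups just failed to overlap, with the first FXR-WT liver the highest by far, and the log2 fold change was -0.24 (95% interval -0.58 to 0.09, adjusted p = 0.548). Without the first FXR-WT liver the Hdac1 value was -0.12 (adjusted p = 0.775). Of the 10 members Hdac1 had the largest share of 50-base stretches that also occurred in another gene, 35.5%, mainly Gm10093, which was not a gene of the count files.

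Phf21a, which encodes BHC80, the reader of unmethylated H3K4 in the complex, lies on chromosome 2 of mm9 from 92024339 to 92204823. It was at 13.7, 12.7 and 14.9 CPM in FXR-WT and at 13.2, 12.7 and 11.7 CPM in Y67F-FXR livers. The groups overlapped, and its log2 fold change was -0.14 (95% interval -0.44 to 0.17, adjusted p = 0.740, edgeR's quasi-likelihood test). It was -0.07 without the third FXR-WT liver and -0.08 without the third Y67F-FXR liver.

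None of the Jumonji demethylase genes Kdm4a, Kdm3a and Kdm6b was called, and the fitted value of Kdm4a was the furthest from 0. Kdm4a, on chromosome 4 of mm9 from 117809609 to 117852648, was at 35.4, 29.1 and 31.2 CPM in FXR-WT and at 27.5, 24.3 and 24.5 CPM in Y67F-FXR livers. Every Y67F-FXR liver was below every FXR-WT liver, and the log2 fold change was -0.33 (standard error 0.127, 95% interval -0.62 to -0.03, adjusted p = 0.318, edgeR's quasi-likelihood test). Kdm3a, on chromosome 6 of mm9 from 71538966 to 71582899, was at 11, 12.2 and 12.1 CPM in FXR-WT and at 13.03, 12 and 8.83 CPM in Y67F-FXR livers. The third Y67F-FXR liver was the lowest and the first the highest of all 6, and the log2 fold change was -0.06 (95% interval -0.46 to 0.34, adjusted p = 0.931). Kdm6b, on chromosome 11 of mm9 from 69212020 to 69227177, was at 23.2, 23.2 and 26.3 CPM in FXR-WT and at 27.7, 23.3 and 22.3 CPM in Y67F-FXR livers. These ranges overlapped almost fully, with a log2 fold change of 0.01 (95% interval -0.29 to 0.32, adjusted p = 0.987). Reads were counted without strand, and 2.19% of the 50-base stretches of Kdm6b were shared, chiefly with its antisense gene Kdm6bos, from which its reads cannot be told apart.

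In 4 members, Kdm1a, Hdac1, Hdac2 and Kdm4a, the groups did not overlap, and in all 4 the Y67F-FXR values were the lower ones. Of all genes tested, 20.6% had groups that did not overlap, 10.5% with Y67F-FXR lower and 10.2% with Y67F-FXR higher. The 3 apart from Kdm1a had fitted values 1.18-fold to 1.36-fold lower in Y67F-FXR. Over all genes the median absolute log2 fold change was 0.19, and the change was larger than that of 84.3% of genes for Hdac2, 73.4% for Kdm4a and 61.3% for Hdac1.

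Per kilobase of exon, the levels of the 10 mRNAs spanned from the deacetylases down to the CoREST scaffolds. In FXR-WT livers, Hdac2 came first at 16.1 CPM per kb, followed by Kdm1a at 14.5 and Hdac1 at 13.1 CPM per kb, and these 3 overlapped with their neighbours in the order. Kdm4a at 6.44 CPM per kb lay below them without overlap, and above Kdm6b at 3.65 and Kdm1b at 3.39 CPM per kb, which overlapped. Kdm3a at 2.39 and Phf21a at 1.99 CPM per kb followed, each separated from the next, and Rcor3 at 0.740 and Rcor1 at 0.487 CPM per kb came last and overlapped. Kdm1a thus stood with Hdac1 and Hdac2 in FXR-WT livers.

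In Y67F-FXR livers the order began with Hdac2 at 11.9 and Hdac1 at 11.03 CPM per kb, which overlapped, followed by Kdm4a at 5.13 CPM per kb. Kdm1a was now the fourth, at 4.29 CPM per kb, below Kdm4a in every liver and overlapping with Kdm6b at 3.68 CPM per kb. Kdm1b was at 3.31, Kdm3a at 2.29, Phf21a at 1.81, Rcor1 at 0.882 and Rcor3 at 0.721 CPM per kb, each overlapping with the next. Relative to its scaffolds, Kdm1a was at 7.82 to 18.9 times the summed level per kb of Rcor1, Rcor2 and Rcor3 in FXR-WT livers and at 1.51 to 3.92 times in Y67F-FXR livers. Both ratios include the fall by which Kdm1a was chosen.

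**Figure D2:**
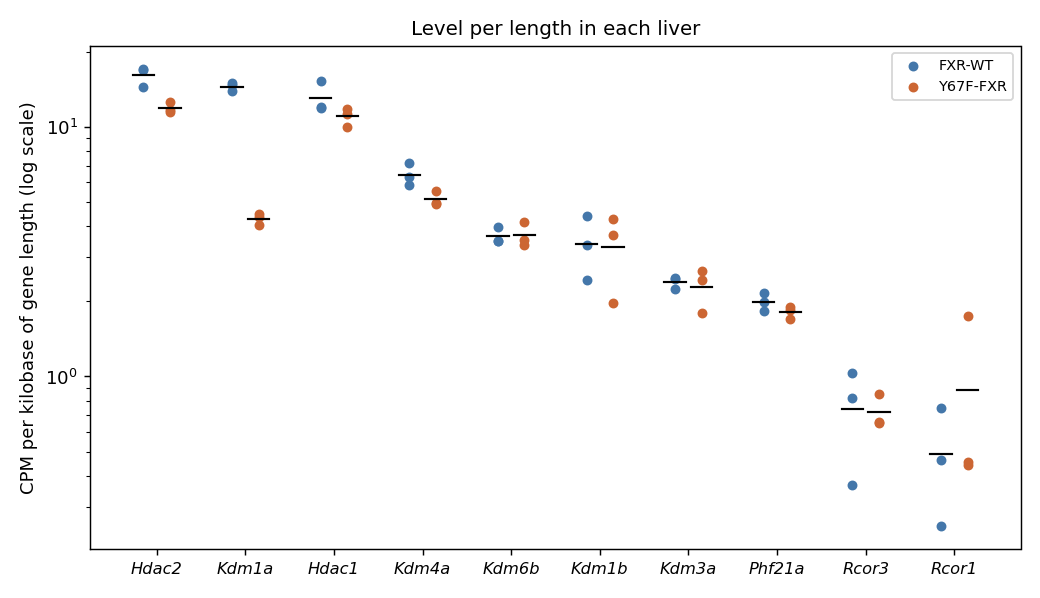
Level per kilobase of exon (CPM per kb, log axis) of the 10 member genes in the 3 FXR-WT (blue) and 3 Y67F-FXR (orange) livers, ordered by the FXR-WT mean, with points for livers and black lines for group means. Kdm1a sits beside Hdac1 and Hdac2 in FXR-WT at 14.5 CPM per kb and beside Kdm6b in Y67F-FXR at 4.29 CPM per kb.

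The spread between livers of the same group was described for each member. For Kdm1a a low spread is partly set by its choice, since a fall that passes a test needs one, so nothing is read from it. Kdm1a varied little, with a coefficient of variation of 3.83% in FXR-WT and 5.48% in Y67F-FXR. Its pooled within-group SD of log2 CPM was 0.07, at the 4th percentile among the 200 genes nearest to it in mean level. Phf21a was also steady, at the 7th percentile. By contrast Rcor1 was at the 99th percentile and Kdm1b at the 96th, with SDs of 0.92 and 0.51, so that the interval around their differences was wide. Kdm4a, Kdm6b, Hdac1, Kdm3a and Hdac2 lay between the 21.5 and 52 percentiles and Rcor3 was at 67.5.

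**Figure D3:**
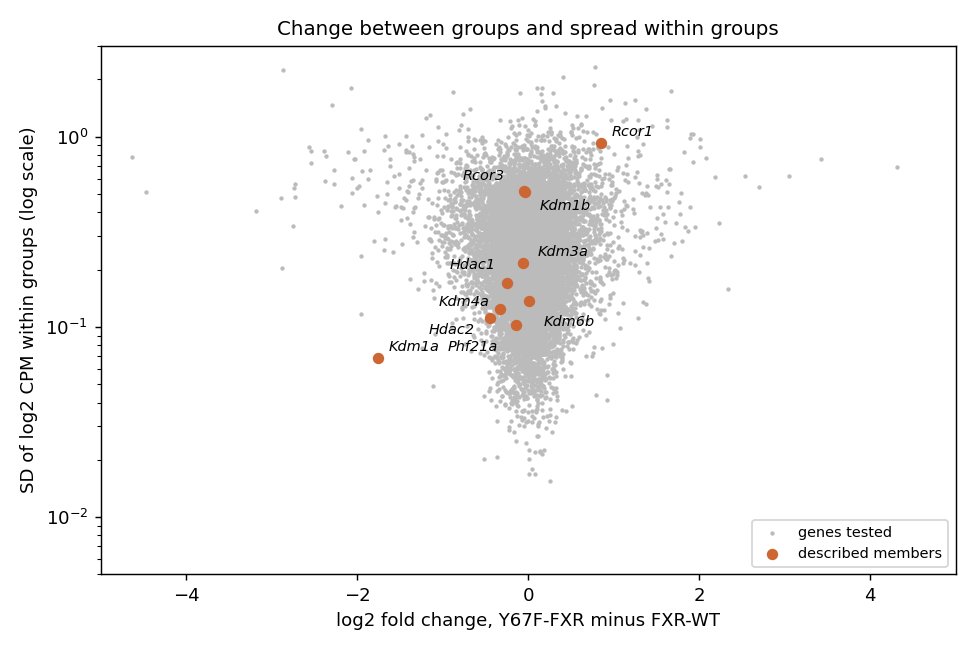
Fitted log2 fold change (x axis, Y67F-FXR minus FXR-WT) and SD of log2 CPM within groups (y axis, log scale) for the 12453 genes tested (grey) and the 10 member genes (orange). Kdm1a, at -1.76 and 0.07, is far left and low, while Rcor1, Rcor3 and Kdm1b have the largest SDs of the 10 members at 0.92, 0.52 and 0.51.

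A pattern that followed transcript length ran through the livers. In the quintile of longest tested genes (median 6201 exon bases), the median deviation of log2 CPM from the gene's own mean over all 6 livers was -0.13, 0.004 and 0.11 in the 3 FXR-WT livers and 0.19, -0.17 and -0.01 in the 3 Y67F-FXR livers, and the quintile of shortest genes (median 1152 bases) went the other way in the livers that deviated most. The same deviations of Kdm1b were -0.40, 0.06 and 0.44 in FXR-WT and 0.41, -0.71 and 0.20 in Y67F-FXR livers. In the 4 livers where the longest genes deviated by more than 0.1, Kdm1b deviated in the same direction, and so did Rcor1, Rcor3 and Kdm6b, that is 4 of the 10 members, beside 21.8% of all genes tested. Of these, Kdm6b has 6644 and Kdm1b 4281 exon bases, while Rcor1 has 2722 and Rcor3 1594. With an offset for length in the fit, the within-group SD was smaller for 4 members (Kdm1b 0.41 in place of 0.51, Kdm6b 0.09 in place of 0.14, Hdac1 0.14 in place of 0.17 and Rcor1 0.91 in place of 0.92). It was larger for the other 6, among them Rcor3 (0.59 in place of 0.52), Phf21a (0.15 in place of 0.10), Kdm4a (0.17 in place of 0.12) and Kdm1a (0.11 in place of 0.07). The part of this pattern in the differences between groups was not tested beyond that fit.

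The wider family of lysine demethylases held 25 listed genes, of which 24 were tested and Kdm4d was not. Kdm1a was the only one called by edgeR's quasi-likelihood test. Of the other 23, 14 had lower and 9 higher fitted values in Y67F-FXR, and 3 had an unadjusted p under 0.05, beside 13.4% of all genes tested. None of the 23 was called by edgeR's quasi-likelihood test or DESeq2, which called 0.972% and 3.46% of all genes tested. The median log2 fold change without Kdm1a was -0.03, beside 0.01 for all genes tested. With Kdm1a in the list, this median moved between -0.18 without the first Y67F-FXR liver and 0.07 without the third FXR-WT liver, so its sign rested on single livers. Kdm5c, which acts on H3K4 trimethylation, went from 52.0 ± 2.77 to 42.3 ± 3.77 CPM (SD, n = 3 each), a log2 fold change of -0.30 (95% interval -0.57 to -0.02, adjusted p = 0.338, edgeR's quasi-likelihood test). Riox1, a ribosomal and histone oxygenase, went from 6.57 ± 0.734 to 8.87 ± 1.58 CPM (SD, n = 3 each), a log2 fold change of 0.44 (95% interval 0.02 to 0.86, adjusted p = 0.351). Apart from Kdm1a the fitted log2 fold changes ran from -0.40 for Kdm8 to 0.54 for Uty, and the lowest interval bound of the 23 was -0.97, for Kdm5d.

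Kdm2a, which acts on H3K36, was at 56.6 ± 9.0 CPM in FXR-WT and 44.8 ± 6.17 CPM in Y67F-FXR (SD, n = 3 each), with a log2 fold change of -0.34 (adjusted p = 0.427, edgeR's quasi-likelihood test). Kdm6a and Uty, the 2 relatives of Kdm6b, had log2 fold changes of 0.22 (adjusted p = 0.781) and 0.54 (adjusted p = 0.640). The relatives of Kdm4a, Kdm4b and Kdm4c, had values of -0.02 and -0.21, and those of Kdm3a, Kdm3b and Jmjd1c, had values of -0.02 and 0.14. None of these relatives was called. The summed level of the listed demethylase genes other than Kdm1a was 314 to 379 CPM in FXR-WT and 272 to 359 CPM in Y67F-FXR livers, ranges that overlapped. Per kb, Kdm1a made up 16.9% to 20.9% of the summed level of all demethylases in FXR-WT and 5.95% to 8.46% in Y67F-FXR livers. This difference in share contains the fall by which Kdm1a was chosen.

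Of 16 listed genes of the LSD1-CoREST complex and its partners, 15 were tested. Kdm1a was the only one called by edgeR's quasi-likelihood test, whereas DESeq2, which called 3.46% of all genes, called Gse1 as well. The other 14 split into 7 with lower and 7 with higher fitted values, with a median of 0.0006 on the log2 scale. The median of all 15 moved between -0.13 without the first Y67F-FXR liver and 0.09 without the third FXR-WT liver. Gse1, a CoREST-associated subunit, came nearest to a call, at 21.1, 22.7 and 27.0 CPM in FXR-WT and 16.3, 15.1 and 15.2 CPM in Y67F-FXR livers. Its groups did not overlap and its log2 fold change was -0.60 (standard error 0.136, 95% interval -0.92 to -0.29, adjusted p = 0.0977, edgeR's quasi-likelihood test). In the gene models Gse1 shares exon bases with Gins2, so its count is uncertain. On the log2 scale, the DNA-bending subunit gene Hmg20b was at 0.11 (adjusted p = 0.742), and the CtBP co-repressor genes Ctbp1 and Ctbp2 had -0.02 (adjusted p = 0.982) and 0.19 (adjusted p = 0.861). The zinc finger genes Zmym2 and Zmym3 had 0.22 (adjusted p = 0.708) and -0.12 (adjusted p = 0.762). The summed level of the listed genes other than Kdm1a was 301 to 326 CPM in FXR-WT and 293 to 309 CPM in Y67F-FXR livers.

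**Figure D4:**
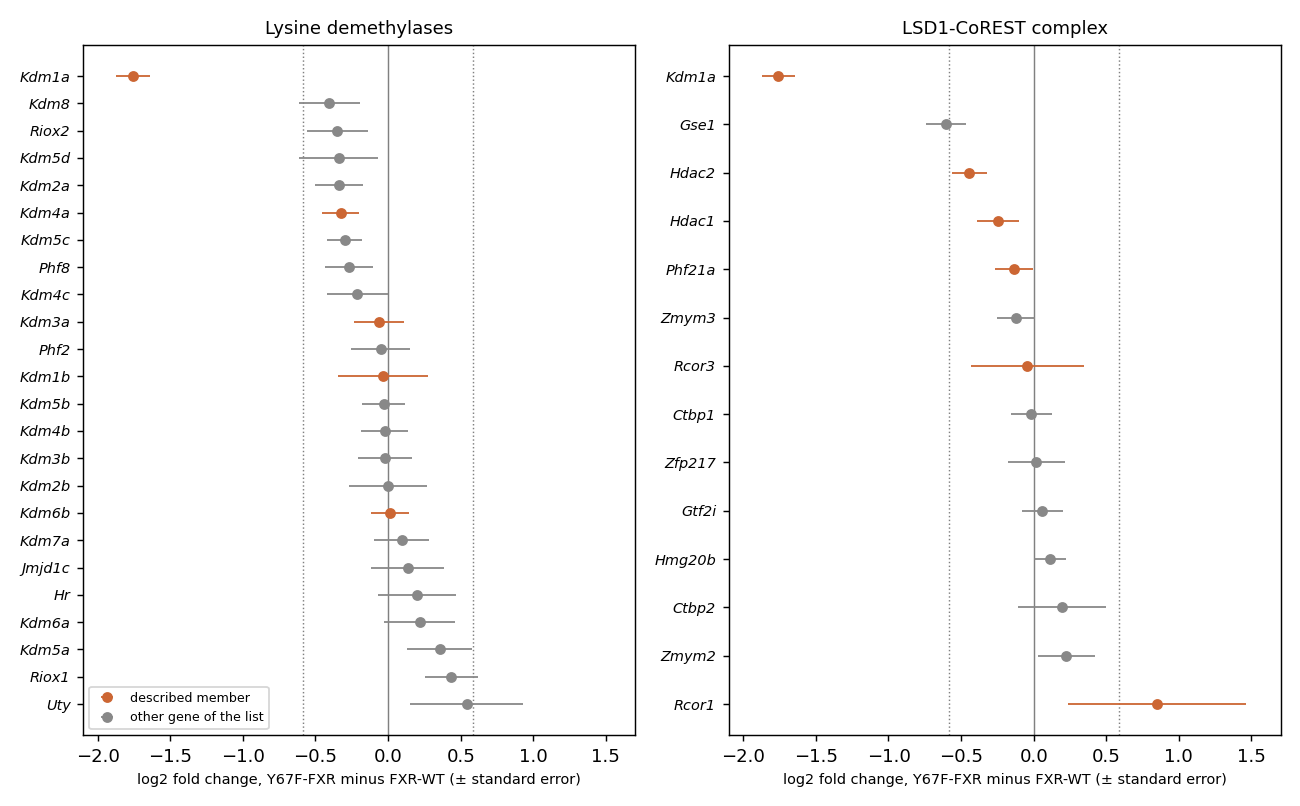
Fitted log2 fold change (points, Y67F-FXR minus FXR-WT) with its standard error (bars) for the tested lysine demethylases (left) and 14 of the 15 tested genes of the LSD1-CoREST complex (right). Orange marks the 10 described members, grey the other genes, and dotted lines a 1.5-fold change. Kdm1a lies at -1.76, and the next lowest are Kdm8 at -0.40 (left) and Gse1 at -0.60 (right).

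The enzymes that oppose or accompany LSD1 were examined as whole lists. Of 28 tested lysine methyltransferases, which write the marks that demethylases remove, none was called by edgeR's quasi-likelihood test. Among them, 2 had an unadjusted p under 0.05, beside 13.4% of all genes tested. DESeq2 and edgeR's likelihood ratio test, which called 3.46% and 3.59% of all genes tested, called those 2. They were Kmt5a, which methylates H4K20, at a log2 fold change of -0.59 (39.4 and 26.2 CPM in FXR-WT and Y67F-FXR, adjusted p = 0.135), and Prdm9, known as a germ cell H3K4 methyltransferase, at -0.70 (7.80 and 4.79 CPM, adjusted p = 0.118). Of 15 other histone deacetylases, none was called by edgeR's quasi-likelihood test or DESeq2, and 2 had an unadjusted p under 0.05, beside 13.4% of all genes tested. These 2 were Sirt3 at 0.34 (adjusted p = 0.282, edgeR's quasi-likelihood test) and Hdac8 at 0.48 (adjusted p = 0.302). The median log2 fold change of this list was 0.18, beside 0.01 for all genes tested, and it was 0.11 without the first Y67F-FXR liver and 0.26 without the first FXR-WT liver. Of 11 subunits of NuRD, another complex that holds HDAC1 and HDAC2, none was called by either tool and none had an unadjusted p under 0.05. The NuRD helicase gene Chd4 was at 0.24 (adjusted p = 0.474) and the histone chaperone gene Rbbp4 at -0.31 (adjusted p = 0.526).

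The genes on either side of Kdm1a on chromosome 4 were examined, since position was not used to choose it. None of the 3 nearest tested genes on each side was called by edgeR or DESeq2, and none had an unadjusted p under 0.05. Luzp1, whose last base lies at 136105233 next to the 3′ end of Kdm1a, was at 11.6 CPM in FXR-WT and 10.5 CPM in Y67F-FXR, a log2 fold change of -0.14 (adjusted p = 0.773, edgeR's quasi-likelihood test). Hnrnpr was at -0.31 (adjusted p = 0.700) and Zfp46 at 0.02 (adjusted p = 0.988). On the other side, the complement genes C1qb, C1qc and C1qa, which are known from macrophages, were at 0.27, 0.18 and 0.26 (adjusted p = 0.821, 0.894 and 0.855). None of the 10 members shared exon bases with another gene of the count files, and no 50-base stretch of Kdm1a transcripts occurred in another gene.

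**Figure D5:**
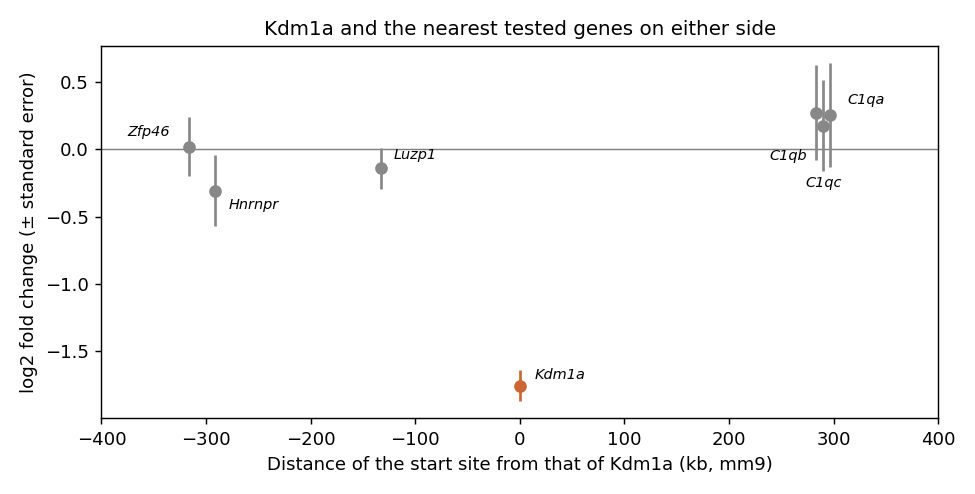
Fitted log2 fold change with its standard error for Kdm1a (orange) and the 3 nearest tested genes on either side (grey), by distance of the start site from that of Kdm1a in kb (mm9). Kdm1a lies at -1.76, and the 6 neighbours lie between -0.31 and 0.27.

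The genes whose pattern over the 6 livers was most like that of Kdm1a were found by the root mean square difference of centred log2 CPM. Among the 5 nearest were Fabp5, a fatty acid-binding protein gene, at a difference of 0.15, Sgsm1 at 0.18, Nudt7, a peroxisomal coenzyme A hydrolase, at 0.22, and Hspa5, the chaperone of the endoplasmic reticulum known as BiP, at 0.25. Fabp5 was at 11.2, 10.4 and 10.02 CPM in FXR-WT and at 2.82, 2.40 and 2.91 CPM in Y67F-FXR livers. Their log2 fold changes were -1.96 for Fabp5, -1.69 for Sgsm1, -1.38 for Nudt7 and -1.68 for Hspa5. This likeness was set by the same fall that chose Kdm1a and is a description only.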

How the data were processed

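RNA of 6 livers was sequenced by the authors. The authors deposited raw counts per gene for each liver, not normalized. Per the labels' processing notes, bcl2fastq 2.17.1.14, Trimmomatic 0.36, FastQC 0.11.5, STAR 2.5.3a and edgeR were used with mm9, and per the file headers featureCounts 1.4.6-p4 counted the reads, without strand and each read of a pair singly. Reads on several genes or places were left out, which lowers genes with near copies. A deposited table of the authors' own fold changes, p-values and false discovery rates was not used.

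Counts were filtered with filterByExpr, scaled by TMM and fitted in edgeR 4.0.16 (R 4.3.3, limma 3.58.1) with group as the only term. Library totals were 19551113 to 22053320 reads, and livers of the same group differed by more than counting noise (median chi-square per gene 2.21 to 7.84), so the spread between livers sets the precision. DESeq2 1.42.0 and other alternatives are given in the closing section. Transcript overlaps used GenomicRanges 1.54.1, shared stretches GENCODE M21 transcripts (GRCm38), and figures Python 3.11.15 with matplotlib 3.10.9. mm9 coordinates are those of the files. Log2 CPM used a prior count of 2.

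The members and lists were chosen with earlier results of these data known. Named genes are the members, any gene of the demethylase and LSD1-CoREST lists, the called genes and the 3 with the smallest unadjusted p of other lists, the 3 tested genes on either side of Kdm1a, and the 5 most alike in pattern. Some genes named by this rule are not reported here. Of the methyltransferases, Setd1b was not found in the counts. The erythrocyte genes Hba-a1 and Hbb-b1 were at 0 in all livers and share exon bases with their copies. With 1 library per liver, p-values measure the spread between these livers.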

Additional observations from a re-analysis of the deposited data

How the results depend on the processing

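Over 16 alternatives, the log2 fold change of Kdm1a stayed between -1.83 and -1.71, and Kdm1a was the 1 member and the 1 demethylase called in each. It was chosen for this fall in these same livers, so its range and its calls in this section are a description only. The number of all genes called depended strongly on the test: in place of 53 lower and 68 higher, DESeq2 called 216 and 215, the likelihood ratio test 226 and 221, an offset for gene length 124 and 123, and unadjusted p-values 401 and 382. Scaling by library totals turned the balance, with 68 lower and 52 higher. Without a filter on low counts, 81 were called lower. Leaving out any 1 of the 6 livers lowered the counts, to between 7 and 33 lower and between 2 and 35 higher. The LSD1-CoREST list had 2 called genes in place of 1 under DESeq2, the likelihood ratio test, the length offset and unadjusted p-values, the second being Gse1, and the methyltransferases had 2 in place of 0 under DESeq2, the likelihood ratio test and unadjusted p-values. Scaled by library totals, the within-group SD of Kdm1a was 0.0229 in place of 0.07.

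The same replicate numbers occur in both groups, and deviations of same-numbered livers correlated at -0.52, -0.08 and 0.12. Between differently numbered livers the correlations ran from -0.59 to 0.58. A pattern shared across numbers could hide a pairing, so these values cannot settle whether the livers were paired. With the replicate number as a block, 6 genes were called lower and 2 higher, Kdm1a among them, and the Rcor3 log2 fold change was 0.025.

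Signs turned for 5 members, whose fitted changes were near 0 or whose counts were low. Kdm6b was at -0.055 with library totals and -0.0024 with the length offset. Over the 6 fits that each left out 1 liver, Kdm6b ranged from -0.086 to 0.080, Rcor3 from -0.37 to 0.28, Kdm1b from -0.26 to 0.22, Kdm3a from -0.18 to 0.094 and Rcor1 from -0.13 to 1.30, the lowest of Rcor1 being without Y67F-FXR replicate 1. The cause of these shifts was not tested. Hdac1, Hdac2, Kdm4a and Phf21a were lower in Y67F-FXR under all 16 alternatives and were called in none, with Hdac1 between -0.31 and -0.12 and Phf21a between -0.21 and -0.07. Rcor1 and Rcor3 had 12 to 98 reads per liver, and the within-group SD of Rcor1 was at the 99th percentile of genes of like level.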
